A study of Homo sapiens with 20 samples.

Results

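Peaks at the start of protein-coding transcripts are those whose summit lay within the first 0.2 of a transcript annotated as protein coding, as read from the transcript length and biotype that the peak lists carry. There were 53943 such peaks among 495936 peaks in 4 lists. By list, 19459 of 162944 peaks were start peaks in NAT10 knockout (KO) cells with the antibody to N4-acetylcytidine (ac4C), called the KO IP list here, and 15158 of 147469 in KO cells with IgG. The wild type (WT) IP list held 9752 start peaks of 92194, and the WT IgG list 9574 of 93329. They fell on 5910, 4807, 4716 and 4655 genes in the order KO IP, KO IgG, WT IP and WT IgG, and on 7155 genes in all. The members were chosen by position alone, and no peak height or fold entered the rule.

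NAT10 acetylates cytidine in ribosomal RNA, transfer RNA and, as reported, in messenger RNA, and the product is ac4C. The start of a messenger RNA holds the cap, the 5′ untranslated region and often the start codon, where the small ribosomal subunit is loaded and scans. Acetylation in this region has been connected with how initiation sites are chosen, and a 5′ terminal oligopyrimidine tract there marks messages of the translation machinery. In acRIP-seq, fragmented RNA is pulled down with an ac4C antibody, and a normal IgG pull-down and unselected input measure what is recovered without the modification.

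The KO cells were K562, a human leukaemia line with erythroid potential, in which exon 5 of NAT10 had been removed by CRISPR-Cas9, and the WT cells were the parental K562 line. The labels give neither the number of clones nor the origin of the replicates, and p-values here reflect only how far libraries of a group lay apart, which may be technical. RNA-seq and ribosome profiling had 2 libraries per genotype, with 18093324 and 18778485 counts in KO and 10388717 and 12725302 in WT for RNA, and 1173526 and 621287 in KO and 1220308 and 911336 in WT for footprints. acRIP-seq had 2 libraries per genotype for IP, IgG and input, but the replicates were merged before peaks were called against input, as the names of the deposited lists say, so each list is 1 sample and no test between lists was possible. The IP and IgG lists of a genotype share that genotype's input. Intervals on shares are exact binomial (Clopper-Pearson, 95%) and cover counting error only, and peaks on transcripts of 1 gene share reads, so these intervals are too narrow. The 2 KO RNA libraries differed by 2.99% more than counting noise and were summed as 1 sample. The 2 WT RNA libraries differed by 1147% more than counting noise, and p-values of the RNA comparison rest on the spread of this WT pair. Erythroid markers were present (HBG2 at 189 and 190.3 CPM, counts scaled by library total, in KO and 125 and 133 in WT, TFRC at 253 and 249 in KO and 275 and 274 in WT). MS4A1 was at 0 in every RNA library, while the epithelial KRT19 was at 73.5 and 73.9 in KO and 133 and 113 in WT; the part of such genes in the results was not tested.

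NAT10 RNA was 49.9 and 49.3 CPM in the KO libraries and 139 and 144 CPM in WT. The KO libraries were both lower and the genotypes did not overlap. The log2 fold change was -1.51 (SE 0.09, edgeR quasi-likelihood test, adjusted p = 0.000102). Footprints on NAT10 were 55.4 and 48.3 CPM in KO and 176 and 188 CPM in WT, and were lower in KO (log2 fold change -1.82, SE 0.19, adjusted p = 0.000334, edgeR). Its transcript carried a start peak in all 4 lists, with a fold over input of 4.28 in KO IP, 3.13 in KO IgG, 7.63 in WT IP and 7.72 in WT IgG. The summits lay 183, 463, 189 and 189 nt from the transcript start in those lists, the KO IgG one on another isoform.

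The first bases of a few of these genes are shown, because start peaks were read on them and because CCG, printed in capitals, holds a C in the sequence context that was described for ac4C. The sequences are the 30 bases from the RefSeq transcription start (GRCh38.p14), given for genes with 1 listed start. NAT10 is at chr11:34105629-34105658 on the plus strand. RPL28 (chr19:55385932-55385961, plus), RPL27A (chr11:8682792-8682821, plus) and RPL37A (chr2:216498844-216498873, plus) had start peaks in all 4 lists. GSTP1 (chr11:67583812-67583841, plus), POLR2L (chr11:842500-842529, minus), PPIB (chr15:64162993-64163022, minus) and ERH (chr14:69398270-69398299, minus) had one in the KO IP list alone. TUSC2 (chr3:50328194-50328223, minus), MPV17L2 (chr19:18193218-18193247, plus), YEATS4 (chr12:69359743-69359772, plus) and NSMCE4A (chr10:121975188-121975217, minus) had one in the WT IP list alone.
NAT10: agttcctgagagggacgcgtgCCGcggagc
RPL28: ctctttCCGtctcaggtcgCCGctgcgaag
RPL27A: ctttttcgtctgggctgccaacatggtagg
RPL37A: ctttctgggctcggacctaggtcgcggcga
GSTP1: gctggagtttcgCCGCCGcagtcttcgcca
POLR2L: agtctgggacgcgCCGCCGccatgatcatc
PPIB: ctcagctgtCCGggctgctttcgcctCCGc
ERH: gttgtagttaagctcgtgtaacggcggcgg
TUSC2: agCCGagcctgcggaaggcggcggcggcgg
MPV17L2: gactcgcgactggtcggcgcggcgaaagca
YEATS4: ctcttttcgcggcgttctccacctgcgcgg
NSMCE4A: agtttctggcgcgaacttCCGCCGttCCGa
The 3 ribosomal protein genes shown begin with C and a run of pyrimidines, and so does YEATS4, which is not a ribosomal protein gene. CCG is present in some sequences of each class and absent in others.

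Across all genes with a start peak, CCG occurred on the transcript strand in the first 50 bases of 76.5% of the 5722 that had a RefSeq start and passed the RNA filter. It occurred in 74.8% of the 9945 protein-coding genes that passed the same filter, in 73.5% of the 2211 that had a coding peak but none at the start, and in 51.4% of all 27305 genes in the RefSeq table. Among genes with a start peak in the KO IP list alone the share was 78.7% of 498, and in the WT IP list alone 72.5% of 109. The median GC content of the first 50 bases was 68% for genes with any start peak and 68% for all coding genes tested. Where a gene had several listed starts the first was used, and 82.8% of the tested genes with a start peak had an entry in the table. A CCG is a description of the letters and not a site.

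In the KO lists, start peaks took up more of the coding peaks with IP than with IgG, while in WT the lists were close. They made up 18.8% of coding peaks in KO IP (interval 18.6 to 19.1) and 16.2% in KO IgG (16.0 to 16.5). In WT they made up 15.1% with IP (14.9 to 15.4) and 14.7% with IgG (14.4 to 14.9). The KO IP list was highest, and the gap between IP and IgG was wider in KO than in WT. The share at the other end of the transcript, past 0.8 of its length, ran the other way between antibodies: 18.1% in KO IP and 20.7% in KO IgG, and 17.5% in WT IP and 18.9% in WT IgG. Summits within the first 0.1 of the transcript alone made up 8.80% of coding peaks in KO IP, 7.15% in KO IgG, 5.32% in WT IP and 5.05% in WT IgG.

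**Figure D1:**
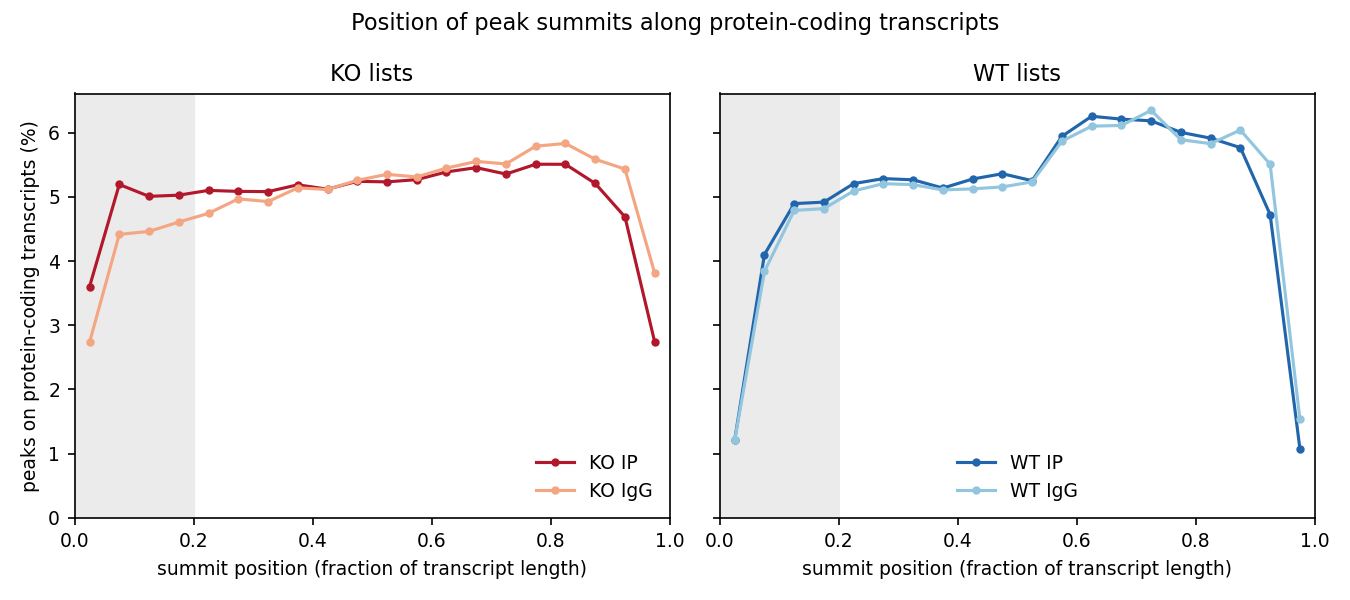
Share of peaks on protein-coding transcripts (%, y axis) by summit position as a fraction of transcript length (x axis, 20 bins), for the KO lists on the left and the WT lists on the right, each with IP and IgG. The shaded first 0.2 is the region described. In its second bin KO IP is at 5.19% and KO IgG at 4.42%, while WT IP is at 4.10% and WT IgG at 3.84%.

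How far from the 5′ end the summits lay differed between the KO and WT lists. The median distance was 338 nt in KO IP, 383 nt in KO IgG, 295 nt in WT IP and 301 nt in WT IgG. Summits under 100 nt numbered 916 in KO IP (4.71%) and 561 in KO IgG (3.70%), against 3 in WT IP (0.0308%) and 5 in WT IgG (0.0522%). The next 100 nt held 28.7% and 24.4% of start peaks in KO IP and KO IgG, and 17.5% and 18.0% in WT IP and WT IgG. From 200 to 300 nt this turned round, with 12.5% in KO IP and 12.7% in KO IgG against 33.3% in WT IP and 31.7% in WT IgG. The KO lists differed from the WT lists more than IP differed from IgG within a genotype in these bins.

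**Figure D2:**
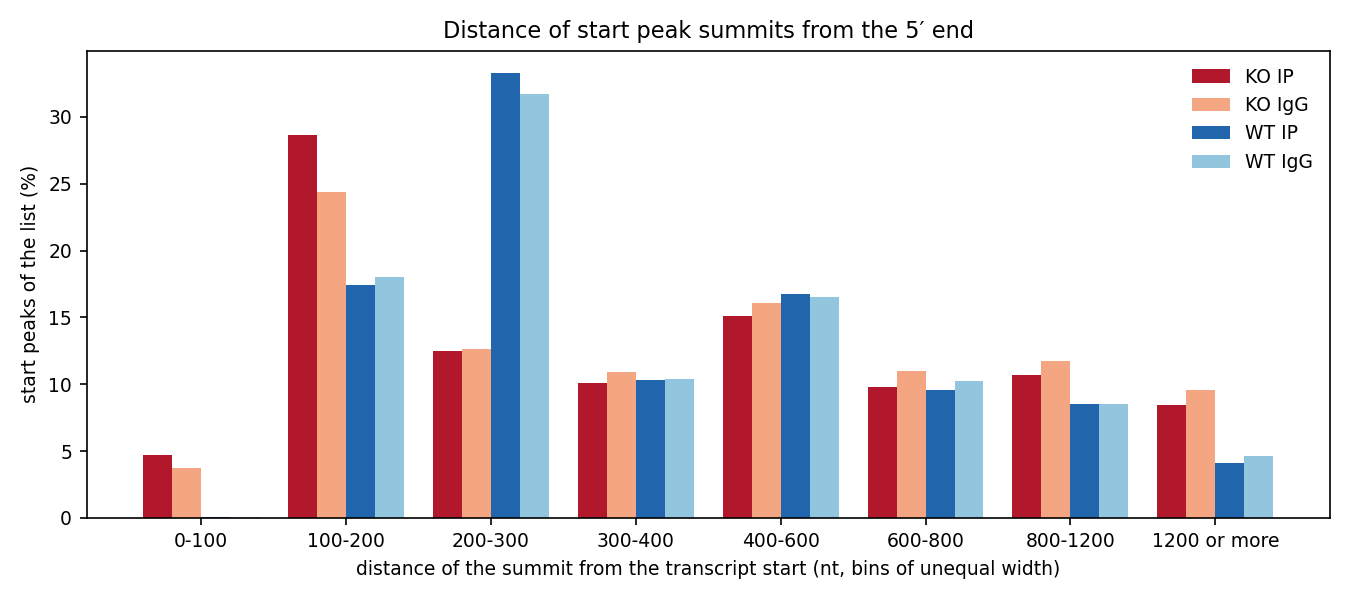
Share of start peaks in each list (%, y axis) by distance of the summit from the transcript start (x axis, nt, bins of unequal width). Bars are KO IP, KO IgG, WT IP and WT IgG from left to right in each bin; the KO bars lead at 100 to 200 nt with 28.7% and 24.4%, and the WT bars at 200 to 300 nt with 33.3% and 31.7%.

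The lists of the genotypes differed in build as well. Called regions on coding transcripts had a median width of 332 nt in KO IP and 320 nt in KO IgG, against 774 nt in WT IP and 765 nt in WT IgG. They reached past the annotated transcript end 602 and 599 times in the KO IP and IgG lists, and 96 and 122 times in the WT IP and IgG lists. The smallest fold listed at the start was 2.09 and 2.28 in the KO IP and IgG lists, and 1.58 in both WT lists. The genotype and the making of the lists cannot be told apart, so counts of peaks are set beside each other between genotypes and not read as gained or lost acetylation.

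Transcript length moved with the share at the start. On transcripts under 1000 nt, start peaks were 12.4% of coding peaks in KO IP and 9.45% in KO IgG, against 3.14% in WT IP and 3.39% in WT IgG. On transcripts of 4000 nt or more they were 20.8% and 18.5% in the KO IP and IgG lists and 19.4% and 18.7% in the WT IP and IgG lists. The IP list stood above the IgG list of KO cells in each of the 4 length classes, with intervals apart. In WT the IP list stood above the IgG list in the 3 classes from 1000 nt, with overlapping intervals in each. On transcripts of 4000 nt or more these were 18.8 to 19.9 in WT IP and 18.2 to 19.3 in WT IgG. The genotypes were farthest apart on the shortest transcripts.

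The height of start peaks, given as the authors' fold over input, was like that of other coding peaks. The median was 4.48 in KO IP, 4.56 in KO IgG, 3.99 in WT IP and 3.96 in WT IgG, where the other coding peaks of the same lists had 4.59, 4.84, 3.80 and 3.83. Just inside the limit, at 0.19 to 0.20 of the length, there were 1060, 861, 632 and 643 peaks with median folds of 4.28, 4.56, 3.82 and 3.89. Just outside, at 0.20 to 0.21, there were 1038, 889, 709 and 682 with 4.17, 4.56, 3.86 and 3.86. The limit cuts through a continuous run of peaks.

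Most start peaks of an IP list coincided with a peak of the IgG list of the same cells. Of KO IP start peaks, 84.0% were overlapped by a KO IgG peak by at least 1 base (interval 83.5 to 84.5), and of WT IP start peaks 96.9% by a WT IgG peak (96.5 to 97.2). An overlap was counted over the whole called region. IgG regions covered 32.3% of the length of the coding transcripts with a peak in KO and 52.7% in WT. The part of region width in these shares was not tested. The start stood below the rest of the transcript in KO, where 89.9% of IP peaks in the middle and 91.4% at the end were overlapped, and not in WT, where the values were 97.0% and 96.6%. Read by summit, 65.4% of KO IP start peaks had a KO IgG summit within 100 nt, and 84.0% of WT IP start peaks a WT IgG summit. Between genotypes, 70.7% of KO IP start peaks were overlapped by a WT IP peak and 83.3% of WT IP start peaks by a KO IP peak. Only 29.8% of KO IP start summits had a WT IP summit within 100 nt, while 54.1% of WT IP start summits had a KO IP one. The median gap to the nearest summit was 169 nt for KO IP against WT IP, but 29 nt for KO IP against KO IgG and 16 nt for WT IP against WT IgG.

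At the level of genes, 2958 of the 7155 (41.3%) had a start peak in all 4 lists. A further 1417 had one in both KO lists and no WT list, and 812 in both WT lists and no KO list. The KO IP list alone held 641 genes and the WT IP list alone 139, where the IgG lists alone held 119 (KO) and 109 (WT). In KO cells 1288 genes had an IP start peak and no IgG start peak, 21.8% of the 5910 genes with one in the IP list, while 185 had an IgG and no IP start peak, 3.85% of 4807. In WT cells 323 genes had IP without IgG, 6.85% of 4716, and 262 had IgG without IP, 5.63% of 4655. Among the 12238 coding genes that passed the RNA filter, IP without IgG at the start occurred in 10.1% in KO and 2.57% in WT. An IP start peak without an IgG one in both genotypes' lists was seen for 47 genes.

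**Figure D3:**
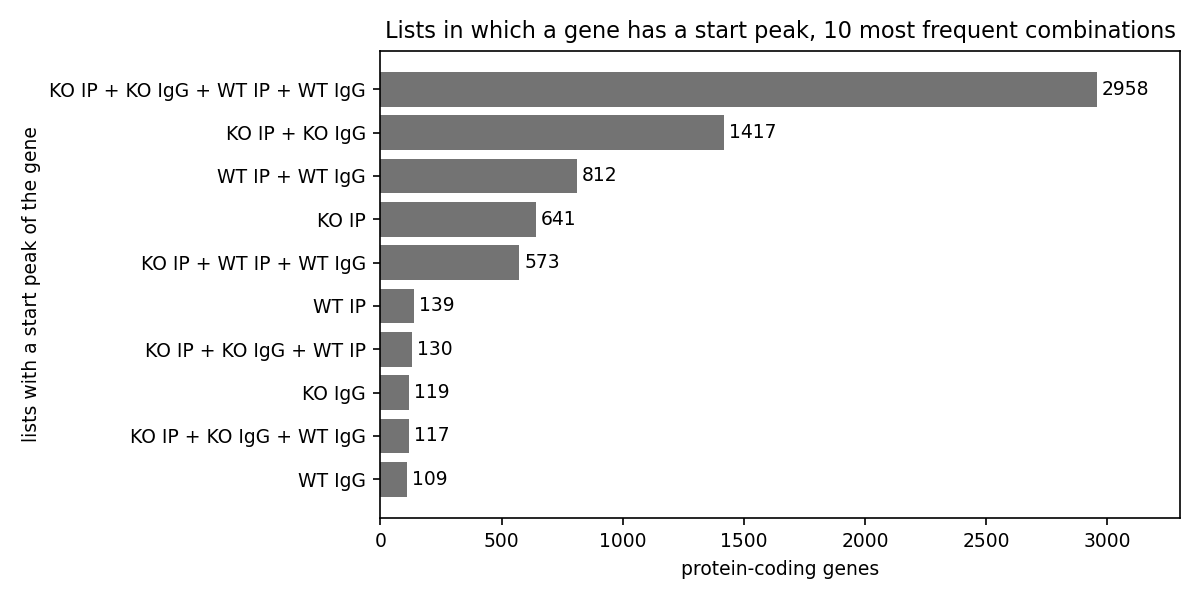
Number of protein-coding genes (x axis) by the combination of lists in which the gene has a start peak (y axis), for the 10 most frequent of 15 combinations. All 4 lists leads with 2958 genes, then both KO lists with 1417 and both WT lists with 812; the KO IP list alone has 641 and the WT IP list alone 139.

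Genes found in a single list had low peaks. The median fold was 3.23 for genes in the KO IP list alone and 2.10 for genes in the WT IP list alone. Genes in all 4 lists had medians of 7.92 in KO IP, 6.26 in KO IgG, 6.83 in WT IP and 6.83 in WT IgG. Their RNA level also differed: the median was 27.4 and 27.5 CPM per kb of the longest transcript in KO and 28.0 and 27.0 in WT for genes in all 4 lists. For genes in the KO IP list alone it was 9.01 and 8.86 in KO and 9.48 and 9.31 in WT, and for the WT IP list alone 8.89 and 8.77 in KO and 9.63 and 9.51 in WT. Genes with a coding peak elsewhere but none at the start were at 1.60 and 1.59 in KO and 1.92 and 1.81 in WT.

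By the WT IP fold, the most enriched start peaks among genes in all 4 lists were on ribosomal protein genes. In the KO lists the highest fold of this class was on H3C14, a histone H3 gene named after its values were seen, with 292 in KO IP, 223 in KO IgG, 5.78 in WT IP and 5.01 in WT IgG. RPS19, of the small subunit, had folds of 107 in KO IP, 71.0 in KO IgG, 361 in WT IP and 379 in WT IgG. RPL13 had 89.4, 65.1, 334 and 292 in that order, and RPL28 had 83.3, 62.3, 332 and 331. RPL27A stood at 82.6, 52.5, 321 and 324, the KO folds on a transcript of 867 nt and the WT folds on an isoform of 4535 nt. RPL37A stood at 159, 177, 305 and 325. RPL13, RPL28, RPL27A and RPL37A are of the large subunit. In WT the IgG fold was higher than the IP fold in 3 of these 5 genes.

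Of these 5 genes, RNA was called lower in KO for RPL27A and RPL28, and footprints were called higher for RPS19. RPL13 and RPL37A had no call in RNA or footprints. RPL27A RNA was 345 and 352 CPM in KO and 638 and 646 CPM in WT, a fall of 0.88 on the log2 scale (log2 fold change -0.88, SE 0.10, edgeR adjusted p = 0.00145). RPL28 RNA was 690 and 689 CPM in KO and 940 and 968 CPM in WT (log2 fold change -0.47, SE 0.10, edgeR adjusted p = 0.0215). RPS19 RNA did not pass the test, at 1364 and 1338 CPM in KO and 1449.7 and 1389 CPM in WT. Footprints on RPS19 were 3180.2 and 3319 CPM in KO and 2105 and 1850.03 CPM in WT and rose (log2 fold change 0.68, SE 0.11, edgeR adjusted p = 0.0049). Both genotypes were apart without overlap in these 3 called differences.

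Of genes with a start peak in the KO IP list alone, the highest folds were on GSTP1, a glutathione transferase, at 40.5 and on H2BC11, a histone H2B gene, at 39.9. POLR2L, a small subunit of RNA polymerases, followed at 29.7, PPIB, a prolyl isomerase of the endoplasmic reticulum (ER), at 28.0 and ERH at 26.9. DGCR6L and TIMM23, part of the mitochondrial inner membrane import channel, had 21.4 each and ZNHIT1 had 14.5. All 8 summits nevertheless lay in a region overlapped by a peak of each other list, whose own summit fell past the limit. On POLR2L the KO IP summit was at 174 nt of 876 nt (0.199 of the length), and the nearest KO IgG summit at 188 nt (0.215) with a fold of 20.9. On PPIB the KO IP summit was at 178 nt of 893 nt and the KO IgG summit 26 nt farther with a fold of 21.9. On GSTP1 the KO IP summit was at 99 nt of 741 nt, and the nearest summit was at 272 nt in the KO IgG, WT IP and WT IgG lists, with folds of 34.2, 273 and 266. For these genes the limit and the exact summit decided the class.

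The highest folds in the WT IP list alone were lower. TUSC2 had 8.59, MPV17L2 5.87, TMEM50B 5.72 and YEATS4, a reader of acylated histones, 5.41. RNF167 and FOXRED1, which takes part in assembly of respiratory complex I, had 5.01 each, TARBP2, a partner of Dicer, 4.85 and NSMCE4A, of the SMC5/6 complex, 4.48. Every one of the 8 was overlapped by a WT IgG peak. The WT IgG summit was 21 nt away on YEATS4 with a fold of 4.78, 24 nt away on FOXRED1 with 3.96, and 119 nt away on TUSC2 with 11.2. Against the KO lists the 8 differed: TUSC2, TMEM50B, YEATS4 and NSMCE4A were overlapped by a KO IP peak whose summit lay past the limit. MPV17L2, RNF167 and TARBP2 had no peak on that transcript in either KO list, and FOXRED1 had none in KO IP.

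Over the whole class, 433 of the 641 genes in the KO IP list alone (67.6%) had a KO IgG peak elsewhere on a coding transcript, and 127 of the 139 genes in the WT IP list alone (91.4%) a WT IgG peak. On the transcript that carried the highest start peak, 126 of 641 (19.7%) were overlapped by a KO IgG peak, and 83 of 139 (59.7%) by a WT IgG peak. When genes were instead taken whose start regions were overlapped by no peak of any other list, a choice made after seeing the data, there were 521 genes in KO IP, 128 in KO IgG, 74 in WT IP and 57 in WT IgG. These are 8.82%, 2.66%, 1.57% and 1.22% of the genes with a start peak in each list. Their folds were low, with a median of 3.13 in KO IP, 2.99 in KO IgG and 1.98 in both WT lists. A fold of 5 or more occurred in 36 of the 521 KO IP genes and 14 of the 128 KO IgG genes, and in 0 of the 74 WT IP and 0 of the 57 WT IgG genes. Among the highest in KO IP, chosen after values were seen, was RNGTT, the enzyme that begins the mRNA cap, at 7.30 with its summit at 105 nt. In WT IP the highest was RANGRF at 3.12 (186 nt), which also had a WT IgG start peak on another isoform with a fold of 2.64 (196 nt). Also high were BCL10, an adaptor of NF-kB signalling, at 3.06 (237 nt) and CDIPT, which makes phosphatidylinositol, at 3.03 (167 nt).

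Whether genes with a start peak changed in RNA or translation between genotypes was asked in the counts, which did not enter the rule. Of all 16277 genes tested in RNA, 5.17% rose and 8.79% fell in KO (edgeR, adjusted p under 0.05). Among 6914 tested genes with any start peak 503 rose (7.28%) and 810 fell (11.7%), and among 2713 with a coding peak but none at the start 121 rose (4.46%) and 253 fell (9.33%). Genes in all 4 lists gave 245 rises and 394 falls of 2928 (8.37% and 13.5%). The KO IP list alone gave 39 rises and 44 falls of 599 (6.51% and 7.35%), and the WT IP list alone 5 rises and 10 falls of 134 (3.73% and 7.46%). RNA level differs between these classes, as given above, and its part in these shares was not tested. The median log2 fold change was -0.01 for the KO IP list alone, 0.01 for the WT IP list alone and 0.02 for all 4 lists, and 0.00 over all tested genes.

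For footprints, 1.47% of 8887 tested genes rose and 3.87% fell. In the KO IP list alone 5 rose and 12 fell of 520, in the WT IP list alone 1 rose and 2 fell of 108, and in all 4 lists 46 rose and 161 fell of 2816 (1.63% and 5.72%). Translational efficiency, the footprint change beyond the RNA change, had 0 calls among 10299 genes with edgeR (0%) and 1 with DESeq2, with 927 genes at an unadjusted p under 0.05. Of these 927, 60 were in the KO IP list alone (of 572 tested) and 7 in the WT IP list alone (of 125). The median efficiency change was 0.02 for the KO IP list alone, -0.10 for the WT IP list alone, -0.03 for all 4 lists and 0.01 over all tested genes, as log2. For the 65 tested genes of WT IP whose start regions no other list overlapped, it was 0.01.

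**Figure D4:**
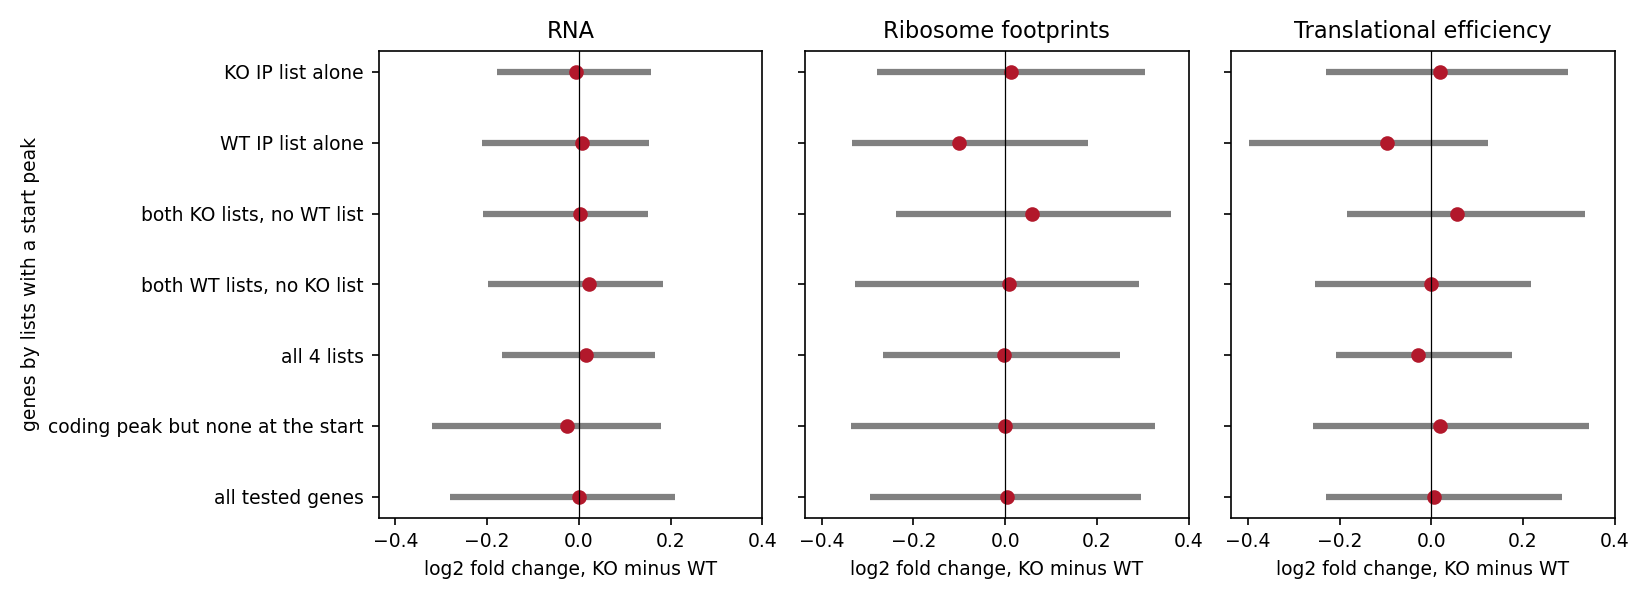
Log2 fold change, KO minus WT (x axis), in RNA, footprints and translational efficiency for genes grouped by the lists in which they have a start peak (y axis). Points are medians over genes and bars run from the 25th to the 75th percentile; every bar crosses 0, and the lowest median is -0.10, for footprints and for efficiency of genes in the WT IP list alone.

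Among genes with a start peak in the KO IP list alone, the RNAs with the lowest adjusted p that fell were PPP1R16B, PTPRB and PPP3CA. PPP1R16B, which regulates protein phosphatase 1, had 34.1 and 34.8 CPM in KO and 116 and 109 CPM in WT (log2 fold change -1.70, SE 0.08, edgeR adjusted p = 4.18e-05). PTPRB, a receptor tyrosine phosphatase, had 19.2 and 21.2 CPM in KO and 90.9 and 99.3 CPM in WT (-2.23, SE 0.11, adjusted p = 5.66e-05, edgeR). PPP3CA, the catalytic subunit of calcineurin, had 17.9 and 17.4 CPM in KO and 61.3 and 64.3 CPM in WT (-1.83, SE 0.11, adjusted p = 0.00016, edgeR). Their start folds in KO IP were 4.59, 3.02 and 3.13. The RNAs that rose included ECE1, which processes endothelin, and PABPC4L, a relative of poly(A) binding proteins. ECE1 had 94.0 and 95.7 CPM in KO and 58.5 and 54.0 CPM in WT (log2 fold change 0.76, SE 0.08, adjusted p = 0.000922, edgeR). PABPC4L had 23.8 and 24.2 CPM in KO and 10.2 and 10.6 CPM in WT (1.21, SE 0.15, adjusted p = 0.0021, edgeR).

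Footprints fell on PPP3CA, TRAPPC6A and DNASE2 of the same class. TRAPPC6A, of a vesicle tethering complex, had 95.4 and 93.4 CPM of footprints in KO and 201 and 203 CPM in WT (log2 fold change -1.13, SE 0.17, edgeR adjusted p = 0.00278). DNASE2, a lysosomal nuclease, had 7.67 and 14.5 CPM in KO and 55.7 and 45.0 CPM in WT (-2.34, SE 0.35, adjusted p = 0.00278, edgeR). Its RNA was 9.45 and 10.5 CPM in KO and 24.1 and 26.0 CPM in WT and fell by 1.32 on the log2 scale. The DNASE2 start region in KO IP was overlapped by WT IP (fold 4.70) and WT IgG (4.98) peaks with summits 59 and 62 nt away, past the limit. PPIB RNA was 90.5 and 92.3 CPM in KO and 132.5 and 119.8 CPM in WT (log2 fold change -0.46). Footprints on PPIB were 232 and 285 CPM in KO and 472 and 436 CPM in WT (-0.86, SE 0.16, adjusted p = 0.00818, edgeR). Those on GSTP1 fell by 0.63 on the log2 scale, a call that was lost without the first WT library (-0.55, adjusted p = 0.115, edgeR).

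Footprints rose on REV3L, the catalytic subunit of DNA polymerase zeta, on KIAA0232 and on TBL1XR1, part of the NCoR corepressor complex. REV3L had 66.5 and 57.9 CPM in KO and 23.8 and 35.1 CPM in WT, KIAA0232 36.6 and 38.6 CPM in KO and 12.3 and 17.6 CPM in WT, and TBL1XR1 78.4 and 72.4 CPM in KO and 40.2 and 39.5 CPM in WT. The log2 fold changes were 1.09, 1.32 and 0.89, with edgeR adjusted p of 0.0321, 0.0346 and 0.0358. All 3 calls were lost when the first KO library was left out (adjusted p = 0.0531, 0.0525 and 0.0902) and when the first WT library was (0.196, 0.176 and 0.129), and TBL1XR1 also without the second WT library (0.116). PPP1R16B footprints also depended on a WT library (adjusted p = 0.0223 with all libraries, and 0.0587 and 0.0661 without the first and the second). With DESeq2 the calls on REV3L, KIAA0232 and TBL1XR1 were not made (adjusted p = 0.250, 0.301 and 0.296). RNA of these 3 genes had log2 fold changes of 0.29, 0.42 and 0.24.

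In the WT IP list alone, TEDC2, a component of the tubulin epsilon and delta complex at centrioles, had 57.9 and 53.1 CPM of footprints in KO and 134 and 138 CPM in WT. Its footprints were lower in KO (log2 fold change -1.31, SE 0.19, adjusted p = 0.00278, edgeR). Its RNA was 38.7 and 40.8 CPM in KO and 40.1 and 36.0 CPM in WT, so that the genotypes overlapped. The efficiency difference was -1.38 (SE 0.19), with an edgeR adjusted p of 0.0610 that missed the threshold. TEDC2 had a low start fold of 1.92 in WT IP, and the nearest WT IgG summit was 775 nt away with a fold of 1.75, in an overlapping region.

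OS9, a lectin of ER quality control, had 38.3 and 22.5 CPM of footprints in KO and 86.0 and 83.4 CPM in WT (-1.43, SE 0.26, adjusted p = 0.00807, edgeR). Its RNA was 33.8 and 34.8 CPM in KO and 51.5 and 53.2 CPM in WT (-0.61, adjusted p = 0.00835, edgeR). FOXRED1 RNA was 80.1 and 78.7 CPM in KO and 54.4 and 49.4 CPM in WT and rose (0.62, SE 0.08, adjusted p = 0.00304, edgeR). Its footprints, 158 and 167 CPM in KO and 87.7 and 102 CPM in WT, had an adjusted p of 0.0274 in edgeR that became 0.181 without the first WT library and 0.0533 without the second. The other RNA falls named by the rule were SH2D1B, DOK1, an adaptor that restrains tyrosine kinase signalling, and SLC37A1, with log2 fold changes of -2.26, -0.63 and -0.66. The other rises were MVK, mevalonate kinase, and KNSTRN, a spindle protein, with 0.59 and 0.35. The MVK call was lost without the first KO library (adjusted p = 0.0703, edgeR). DESeq2 did not make the RNA calls on MVK and KNSTRN (adjusted p = 0.247 and 0.286) or the footprint call on FOXRED1 (0.143).

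Start peaks were most frequent in genes of translation initiation, elongation and splicing. Among coding genes that passed the RNA filter, 46.7% had a start peak in KO IP, 38.0% in KO IgG, 38.0% in WT IP and 37.5% in WT IgG. Of 38 translation initiation factors 35 had one in KO IP, 31 in KO IgG, 33 in WT IP and 32 in WT IgG. Of 36 splicing factors and hnRNPs the numbers in the same order were 34, 33, 33 and 32, and of 11 elongation and release factors 10, 9, 9 and 9. These groups were the highest of the 15 in KO IP, WT IP and WT IgG. Genes with a start peak had a higher median RNA level than genes with a coding peak but none at the start. The part of RNA level in the shares of the 15 groups was not tested. EIF2B3, of the guanine exchange factor eIF2B, had a start peak in the KO IP list alone with a fold of 3.86, in a region overlapped by peaks of KO IgG (3.56), WT IP (6.58) and WT IgG (6.63) with summits past the limit. EIF4G1, the scaffold of the cap-binding complex, had 7.51 in KO IP, 4.84 in KO IgG and 2.13 in WT IP. In that order these peaks lay on isoforms of 2907, 5042 and 5667 nt. In WT IgG it had no start peak but a peak elsewhere on a coding transcript.

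**Figure D5:**
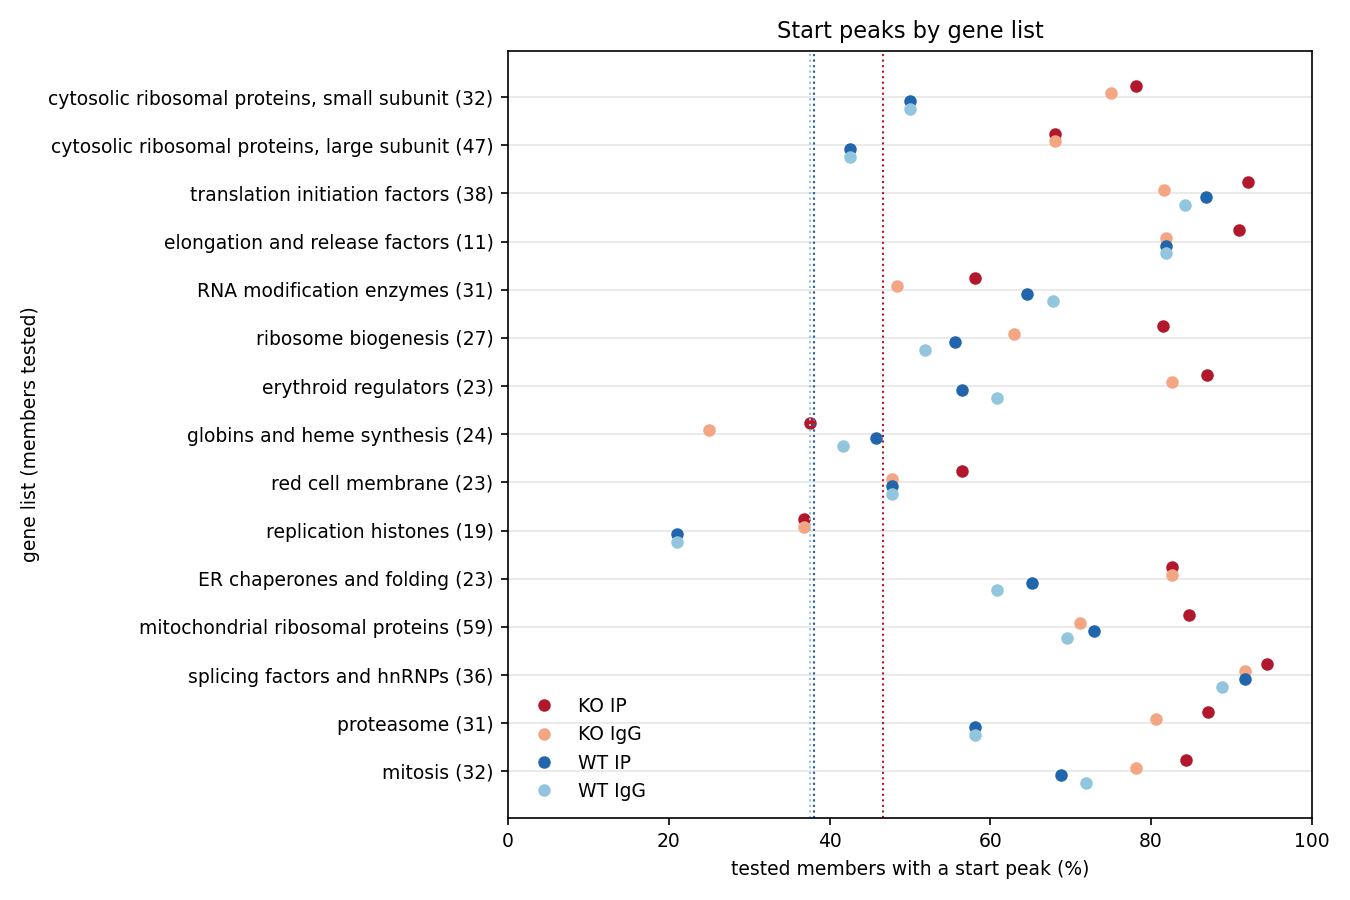
Percentage of tested members with a start peak (x axis) in each of 15 gene lists (y axis, number of tested members in brackets), with 1 point per peak list. Dotted lines give the share over all tested coding genes, 46.7% in KO IP, 38.0% in KO IgG, 38.0% in WT IP and 37.5% in WT IgG; translation initiation factors lie right of the lines in every list.

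Ribosomal proteins had more members with start peaks in the KO lists than in the WT lists, with both antibodies. Of 32 small subunit proteins 25 had one in KO IP, 24 in KO IgG, 16 in WT IP and 16 in WT IgG, and of 47 large subunit proteins 32, 32, 20 and 20. The shares over all tested coding genes were 46.7%, 38.0%, 38.0% and 37.5% in the same order. The median fold of the members with a peak was higher in WT. For the small subunit it was 46.4 in KO IP, 34.5 in KO IgG, 136 in WT IP and 137 in WT IgG, and for the large 52.4, 41.7, 209.8 and 216. Each median is over the members with a start peak in that list, and these members differ between lists. The part of transcript length in these counts and folds was not tested. RPL38 had 63.9 in KO IP, 144 in WT IP and 147 in WT IgG. It had no KO IgG start peak but a KO IgG peak elsewhere on a coding transcript. RPL29 had 17.9, 18.4 and 6.77 in KO IP, KO IgG and WT IP, and in WT IgG only a peak elsewhere on a coding transcript. The RPL29 start peaks lay on a transcript of 754 nt in the KO lists and on an isoform of 880 nt in WT IP. In RNA 0 of the 32 and 0 of the 47 rose and 3 and 5 fell, where 5.17% of all tested genes rose and 8.79% fell. In footprints 2 rose and 1 fell of 26, and 2 rose and 1 fell of 43, where 1.47% of all tested genes rose and 3.87% fell.

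Mitochondrial ribosomal proteins had 50, 42, 43 and 41 of 59 in KO IP, KO IgG, WT IP and WT IgG. All tested coding genes had 46.7%, 38.0%, 38.0% and 37.5% in these lists. The 11 with IP and no IgG in KO included MRPL12 at a fold of 14.1, whose region was overlapped by a KO IgG peak of fold 13.2 with its summit 98 nt farther, past the limit, and by WT IP and WT IgG peaks of 55.8 and 57.3. The 2 in WT were MRPL16 and MRPS10, both with a WT IgG peak elsewhere on a coding transcript. MRPL16 had 24.0 in KO IP, 16.2 in KO IgG and 58.5 in WT IP, the last at 214 nt of 1083 nt, close to the limit. Factors of ribosome biogenesis, a process in which NAT10 itself takes part, had 22, 17, 15 and 14 of 27. FBL, the methyltransferase of box C/D particles, at 5.00 and the nucleolar GTPase GNL3 at 6.67 had a start peak in the KO IP list alone. Both regions were overlapped by peaks of the other 3 lists with summits past the limit, on FBL with a fold of 30.4 in WT IP at 0.210 of the length and 31.6 in WT IgG at 0.215. RNA modification enzymes had 18, 15, 20 and 21 of 31, the IP list being below the IgG list in WT. WTAP, of the m6A writer complex, had 3.75 in KO IP on a transcript of 1623 nt. On an isoform of 2105 nt it had 4.88 in WT IP and 4.19 in WT IgG.

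Erythroid regulators had start peaks in 20, 19, 13 and 14 of 23 members in KO IP, KO IgG, WT IP and WT IgG, and red cell membrane genes in 13, 11, 11 and 11 of 23. Globins and heme synthesis genes had 9, 6, 11 and 10 of 24. Over all tested coding genes the shares in that order were 46.7%, 38.0%, 38.0% and 37.5%. FECH, which inserts iron into heme, had folds of 3.55 in KO IP, 4.73 in WT IP and 4.68 in WT IgG. Its RNA was 109 and 114 CPM in KO and 86.4 and 77.8 CPM in WT and rose (log2 fold change 0.45, SE 0.07, edgeR adjusted p = 0.00692). In the globin and heme list 9 RNAs rose and 1 fell of 24, and in the erythroid regulators 4 rose and 5 fell of 23, beside 5.17% and 8.79% of all tested genes.

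ER chaperones and folding enzymes had start peaks in 19, 19, 15 and 14 of 23 in KO IP, KO IgG, WT IP and WT IgG. In this list 11 RNAs fell and 1 rose of 23, and 11 footprint levels fell and 0 rose of 22, the largest count of footprint falls among the 15 lists. Over all tested genes 8.79% fell in RNA and 3.87% in footprints. CALR, the chaperone calreticulin, had a start fold of 37.3 in KO IP and 23.3 in KO IgG on a transcript of 1901 nt. The start fold of 3.55 in WT IP was on another isoform, of 776 nt. In WT IgG CALR had no start peak but a peak elsewhere on a coding transcript. Its footprints were 251 and 203 CPM in KO and 457 and 489 CPM in WT (-1.08, SE 0.16, adjusted p = 0.00278, edgeR), and its RNA 139 and 143 CPM in KO and 198 and 179 CPM in WT (-0.42, adjusted p = 0.0120, edgeR). DNAJB9, a luminal co-chaperone, had a start peak in the WT IP list alone with a fold of 3.12, in a region overlapped by peaks of the other 3 lists with summits past the limit. Proteasome genes had 27, 25, 18 and 18 of 31 in KO IP, KO IgG, WT IP and WT IgG, mitosis genes 27, 25, 22 and 23 of 32 and replication histones 7, 7, 4 and 4 of 19. In 13 of the 15 lists more members had a start peak in KO IP than in WT IP, and the exceptions were RNA modification enzymes and globins and heme synthesis. Over all tested coding genes the share was likewise higher in KO IP, at 46.7% against 38.0% in WT IP. It was 38.0% in KO IgG and 37.5% in WT IgG.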

How the data were processed

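Sample groups came from titles. The authors deposited raw counts per gene for RNA and footprints, made after removal of duplicate reads per the file headers, which lowers abundant short genes most. For acRIP-seq they deposited 1 narrowPeak list per antibody and genotype, on transcript coordinates, from merged replicates against input as the names of the lists say. The authors' fold is a ratio over input, and q values were deposited as −log10. The submitters' processing notes name STAR, featureCounts, Bowtie2, MACS2, SAMtools, bedtools, cutadapt, Trimmomatic and GRCh38.p13, without roles or versions. No source used here gives the strand setting of the counting, and overlapping genes cannot be told apart.

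Peaks were taken where the biotype was protein_coding and summit divided by transcript length was at most 0.2. Several summits can share a region. A gene was placed in a class by its lists with a start peak, and its highest fold used, which can lie on different isoforms in different lists. The counts went into edgeR 4.0.16 (R 4.3.3; TMM, filterByExpr, quasi-likelihood test, Benjamini-Hochberg adjusted p under 0.05 over all genes), and DESeq2 1.42.0 was an alternative. Because the KO RNA libraries were summed, the RNA fit had 1 KO sample, assumed to vary like WT. Efficiency was the interaction of assay and genotype. Each fit was also run on simulated counts with the same dispersion in every library, which cannot check whether the KO sample varies like WT. CPM were computed from library totals.

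Named genes were NAT10, the 8 highest folds of each IP list alone, the 5 highest of all 4 lists, up to 3 called genes per direction and fit, and up to 3 members per gene list with IP and no IgG start peak. The members and lists were chosen with earlier results of these data known. The 2 replicate numbers per group do not mark pairs in the labels. U2AF1 and PSMA2, named by the rule, are not described because few reads were counted on them, and some other named genes are not reported here.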

Additional observations from a re-analysis of the deposited data

How the results depend on the processing

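With a limit of 0.1 of the transcript, genes with a start peak fell to 2486 in WT IP and 2391 in WT IgG. Requiring an overlap of at least 50% of the peak gave 67.7% (KO IP by KO IgG), 94.1% (WT IP by WT IgG), 63.0% (KO IP by WT IP) and 50.6% (WT IP by KO IP), and summits within 100 nt, chosen after seeing the data, gave 65.4%, 84.0%, 29.8% and 54.1%. On the longest transcript per gene start peaks were 20.2%, 17.6%, 18.7% and 17.9% of coding peaks in KO IP, KO IgG, WT IP and WT IgG. Genes whose WT IP start regions no other list overlapped numbered 74, where 139 had a start peak in the WT IP list alone. RNA calls were 1042 with DESeq2 (39 in the KO IP list alone, 6 in the WT IP list alone), 3513 with no filter and 5476 with the KO libraries kept apart (223 and 41). Footprint calls were 178 with DESeq2 (6 in the KO IP list alone) and 889 with no filter (34 and 5). They ran between 264 and 716 when 1 library was left out (9 to 30 in the KO IP list alone). Efficiency calls were 1 with DESeq2, 62 with no filter (1 and 1), 3 with KO libraries apart (1 in the WT IP list alone) and 0 to 6 leaving out 1 library (0 to 1 in the WT IP list alone). The causes were not tested. The other 95 values stayed within 1.5 times the main count or, for shares, within its interval, and of 295 values for named genes 24 lost their call and 0 changed sign.

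With the replicate number as a block, footprint calls were 1594 (74 in the KO IP list alone and 9 in the WT IP list alone), RNA calls with the KO libraries kept apart 4983 (198 and 35) and efficiency calls 263 (9 and 2). Same-numbered libraries deviated together by a correlation of -0.01 in RNA and 0.23 in footprints over 2 pairs, so the numbers were not taken to pair libraries. Leaving out a WT RNA library from the RNA comparison could not be fitted with the summed KO sample. The limits are 1 merged list per antibody and genotype, lists of differing build between genotypes, few footprint counts and no transcript sequence to place peaks in untranslated or coding parts.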
